A study of Mus musculus with 20 samples.

Results

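The 40 genes described here encode the folding machinery of the endoplasmic reticulum (ER): its chaperones, the enzymes that make and rearrange disulfide bonds, and its prolyl isomerases. They were taken by symbol from a named list, and each symbol matched 1 of the 46603 Ensembl gene IDs in the deposited count table. No measured value served as a criterion, but the list was chosen with earlier results of these data known. The list was sorted into 8 roles. Chaperone roles were the HSP70 system (6 genes), its J-domain partners (5), GRP94 with canopy-family genes (3) and lectin chaperones with quality control partners (4). The rest were the soluble protein disulfide isomerase (PDI) family (9), the membrane-bound PDI family (5), oxidases that recharge PDI (2) and prolyl isomerases (6).

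Proteins that enter the ER are bound by the HSP70 chaperone BiP, the product of Hspa5, whose cycle of binding and release is set by J-domain proteins and nucleotide exchange factors. Glycoproteins pass through the calnexin and calreticulin cycle, PDI enzymes pair cysteines, and the Ero1 oxidases restore PDI to its active form. Several of these proteins bind calcium, which SERCA pumps carry into the ER. When unfolded proteins gather, the sensors ATF6, IRE1 and PERK start the unfolded protein response (UPR), in which ATF6 and XBP1 switch on many folding genes. The folding capacity of the ER can also grow in lymphocytes that begin to secrete.

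The study measured total RNA, extracted with Trizol, by sequencing in 20 libraries that form 10 groups of 2. Thapsigargin (TG), which blocks SERCA pumps, was given at 50 ng/mL, and its vehicle (Veh) was DMSO, each for 8 hours. B16F10 cells, a mouse melanoma line held in 1 µg/mL puromycin, were Ccdc101 KO with TG, control with TG, Ccdc101 KO with vehicle, or control with vehicle. Ccdc101, listed in the annotation as Sgf29, encodes a subunit of histone acetyltransferase complexes. The T cells were CD8 T cells from OT-I/Cas9 mice, which carry 1 transgenic T cell receptor and the Cas9 nuclease, grown with IL-2, IL-7, IL-15, 50 µM betamercaptoethanol and 4 µg/mL puromycin. Control T cells were activated with TG, resting with TG, activated with vehicle or resting with vehicle. Activation meant 24 hours on plates coated with anti-CD3 antibody at 2.5 µg/mL. Atp2a2 KO T cells, in which the gene for SERCA2 was targeted, were labelled activated or resting and received vehicle in both groups. The labels do not say whether the libraries of a group came from separate cultures, or whether the KO cells were clones or mixed populations, so p-values measure the spread between these libraries, which may be technical. Cell counts were not given, and in bulk RNA fewer cells of a type and less RNA per cell cannot be told apart.

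Libraries held between 9985311 and 17462770 counts. Melanocyte markers summed to between 11070 and 17220 CPM (counts per 1e6 counts of the library, after scaling) in B16F10 libraries and to at most 7.497 CPM in T cell libraries, while CD8 T cell markers summed to at least 2040 CPM in T cells and to at most 7.53 CPM in B16F10 cells. Sgf29 RNA was present in the KO libraries at 19.6 and 18.7 CPM with vehicle, against 29.6 and 28.2 CPM in control cells. Atp2a2 RNA stood at 434 and 436 CPM in activated KO cells, against 664 and 687 CPM in activated control cells. The libraries labelled resting Atp2a2 KO stood apart from their label: their T cell activation markers summed to 34920 to 35120 CPM, inside the range of the activated groups with vehicle, against 12900 to 13420 CPM in resting control cells. They are called the libraries labelled resting Atp2a2 KO throughout, and a comparison with them is not a comparison of resting cells. Without these libraries the number of members called was the same in each other comparison within T cells, and 1 lower in each comparison of melanoma with T cells under TG. TG also went with lower activation markers, which summed to 22880 to 22970 CPM in activated cells with TG, against 34250 to 35120 CPM with vehicle, and to 7785 to 7793 CPM in resting cells with TG; their part in the member values was not tested.

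Many folding genes carry a known regulatory site, the ER stress response element (ERSE), which ATF6 binds together with the factor NF-Y. Promoter windows from 250 bases before to 50 bases after the annotated start, from RefSeq on build GRCm38.p6, were found for 33 of the 40 members and searched on both strands for CCAAT, any 9 bases, then CCACG. The exact element stood in 8 of the 33 members with a window, and in 29 of 17492 protein-coding genes with a window, 0.166%, a number that includes these 8. The 9 sites are shown as a sequence feature of these 8 members, and the list was not selected on it. Since the element was already known from folding genes, its frequency among the members is a description and not an independent result. Each line gives the site and 20 bases on either side, read on the strand that carries CCAAT, with both parts of the element in capitals.
Hspa5, chr2:34772005-34772063, plus strand: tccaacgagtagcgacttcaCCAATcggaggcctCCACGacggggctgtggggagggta
Dnajc3, chr14:118937807-118937865, plus strand: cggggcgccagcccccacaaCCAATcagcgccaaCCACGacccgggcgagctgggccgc
Hsp90b1, chr10:86705618-86705676, minus strand: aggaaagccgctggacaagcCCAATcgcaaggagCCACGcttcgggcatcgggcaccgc
Hsp90b1, chr10:86705513-86705571, plus strand: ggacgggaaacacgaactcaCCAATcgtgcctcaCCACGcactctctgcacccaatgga
Canx, chr11:50325780-50325838, minus strand: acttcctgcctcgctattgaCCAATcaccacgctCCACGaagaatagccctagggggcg
Calr, chr8:84847055-84847113, plus strand: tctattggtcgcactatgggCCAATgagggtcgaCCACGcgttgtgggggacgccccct
Pdia6, chr12:17266471-17266529, plus strand: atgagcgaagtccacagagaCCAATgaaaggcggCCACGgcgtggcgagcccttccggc
Creld2, chr15:88819500-88819558, minus strand: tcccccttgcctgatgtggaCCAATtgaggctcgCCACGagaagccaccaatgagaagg
Ero1lb, chr13:12565662-12565720, minus strand: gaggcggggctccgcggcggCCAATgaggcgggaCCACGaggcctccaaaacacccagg
Hsp90b1 had 2 sites, 1 on each strand. All 9 sites lay upstream of the start, the nearest ending 47 bases before it in Hspa5 and the farthest beginning 212 bases before it in Hsp90b1. On 4 of the 9 the element read on the strand opposite to the gene. Allowing 1 mismatch, 12 of 33 members had an element, with Pdia3, Pdia4, Erp44 and Fkbp2 added, against 1.99% of protein-coding genes. The related element ERSE-II (ATTGG, any 1 base, CCACG) stood in Dnajb11 alone among members and in 0.0629% of genes. The UPRE (TGACGTGG), a site of XBP1, stood in Txndc5 and Txndc11 and in 0.823% of genes, and the ATF4 site (TGATG, any 1 base, AA) in Cnpy2 and Txndc5 and in 4.13% of genes. A match to letters does not show that a factor bound there.

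In melanoma cells the 40 genes together took a larger part of the transcriptome under TG. Their summed counts made up 6.10% and 6.02% of the library in control cells with TG, against 1.44% and 1.45% with vehicle. In Ccdc101 KO cells the shares were 6.70% and 6.67% with TG, against 1.40% and 1.42% with vehicle. T cells gave smaller shares: 1.96% and 1.95% in activated cells with TG, against 1.39% and 1.42% in activated cells with vehicle, and 1.29% and 1.32% in resting cells with TG, against 0.845% and 0.819% in resting cells with vehicle. In activated Atp2a2 KO cells the share was 1.51% and 1.56%. Hspa5 by itself held 1.70% and 1.64% of all counts in control melanoma with TG, against 0.174% in both vehicle libraries.

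**Figure D1:**
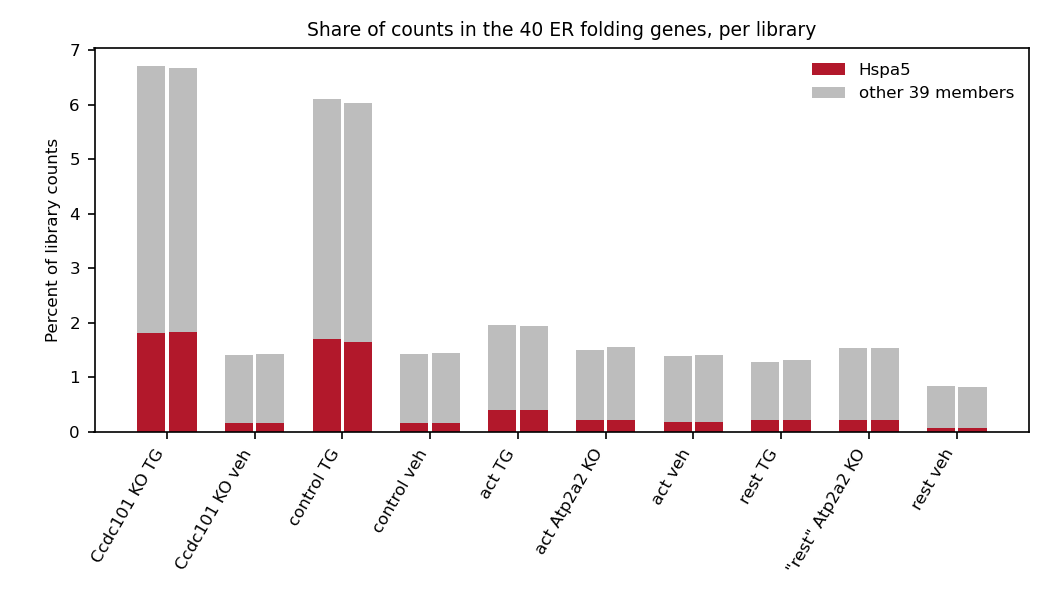
Percent of all counts in each library that fell on the 40 ER folding genes, with Hspa5 and the other 39 genes stacked, 1 bar per library. The TG-treated melanoma libraries stand between 6.02% and 6.70%, and no other library passes 1.96%.

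Control melanoma cells were compared first, with against without TG. Of the 40 members, 31 rose and 7 fell at an adjusted p below 0.05 by edgeR's quasi-likelihood test, against 35.7% of the 12540 genes tested that rose and 36.1% that fell. A rise of at least 2-fold was called for 22 members, against 10.7% of all genes tested. The median log2 change of the members was 1.11, and that of all genes tested was -0.00082. The HSP70 system, its J-domain partners, the lectin group and the oxidases rose in full, while of the membrane-bound PDI family 4 of 5 fell. By DESeq2 30 members rose and 4 fell, and of edgeR's 38 calls 34 held in every alternative tried, the exceptions being Dnajc1, Tmx2, Tmx4 and Fkbp10.

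All 6 genes of the HSP70 system rose with TG. Hspa5 stood at 17586 and 17110.1 CPM with TG, against 1715 and 1709 CPM with vehicle (log2 change 3.34 ± 0.022 SE, adjusted p = 2.8e-53). Hyou1, a nucleotide exchange factor for BiP, gave 3692 and 3744 CPM with TG, against 533 and 518 CPM with vehicle (log2 change 2.82 ± 0.028 SE, adjusted p = 2.92e-47). Sdf2l1, which works with BiP and a J-domain protein to keep clients soluble, gave 640.2 and 665 CPM with TG, against 73.4 and 76.5 CPM with vehicle (log2 change 3.12 ± 0.039 SE, adjusted p = 4.49e-43). In each of these the TG libraries lay far above the vehicle libraries, with no overlap. Manf, a secreted protein that binds BiP, rose by 2.69 ± 0.035 SE on the log2 scale and Hspa13, a short HSP70 relative, by 1.63 ± 0.042. Sil1, the other exchange factor of BiP, changed least in the group, at 0.49 ± 0.11.

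The J-domain partners rose too, 5 of 5. Dnajb9 (ERdj4), which hands misfolded proteins on for degradation and holds IRE1 back, gave 191 and 193 CPM with TG, against 11.99 and 10.9 CPM with vehicle (log2 change 4.06 ± 0.063 SE, adjusted p = 1.17e-39). It was a low-abundance RNA before treatment and showed the second largest rise among members. Dnajc3 gave 1135 and 1148 CPM with TG, against 222 and 228 CPM with vehicle (log2 change 2.34 ± 0.032 SE, adjusted p = 7.66e-42). Dnajb11, a J protein that binds unfolded clients, rose by 1.16 ± 0.035 SE and Dnajc10, a J protein that also reduces disulfides, by 0.99 ± 0.039 SE. The rise of the ribosome-bound Dnajc1, 0.16 ± 0.053 SE, was not called without TG replicate 2 (log2 change 0.13, adjusted p = 0.089), and 749 bases of its exons overlap Mllt10 on the other strand, so that reads cannot be assigned without strand.

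Hsp90b1, which encodes the ER HSP90 chaperone GRP94, gave 12359 and 12484 CPM with TG, against 2149.8 and 2143 CPM with vehicle (log2 change 2.53 ± 0.022 SE, adjusted p = 4.39e-49). Exons of Hsp90b1 overlap those of other genes by 632 bases. The canopy-family genes listed with it split. Cnpy2 rose, at 79.1 and 74.6 CPM with TG and 37.9 and 36.1 CPM with vehicle. Cnpy3, which helps GRP94 fold Toll-like receptors, fell (log2 change -0.27 ± 0.056 SE). The lectin group rose as a whole, 4 of 4, and by less than the HSP70 system. Calr gave 4554 and 4557 CPM with TG, against 1509.9 and 1582 CPM with vehicle (log2 change 1.56 ± 0.025 SE, adjusted p = 2.82e-39). Canx, the membrane-bound relative of calreticulin, gave 2455 and 2374 CPM with TG, against 1546 and 1577 CPM with vehicle (log2 change 0.63 ± 0.025 SE, adjusted p = 1.16e-24). Both lectins had TG libraries above all vehicle libraries, calreticulin by the larger factor. Uggt1, the sensor that sends unfolded glycoproteins back to them, gave 659.6 and 693 CPM with TG, against 454 and 449 CPM with vehicle (log2 change 0.58 ± 0.032 SE, adjusted p = 3.89e-20). Pdia3, their disulfide isomerase partner, changed by 1.53 ± 0.026 SE.

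Among the 9 soluble PDI family genes 7 rose, 1 fell and 1 was not called. Creld2 gave 1656 and 1691 CPM with TG, against 122 and 119.6 CPM with vehicle (log2 change 3.79 ± 0.033 SE, adjusted p = 4.39e-49). Pdia4 (ERp72) gave 4945 and 4901 CPM with TG, against 629.7 and 624 CPM with vehicle (log2 change 2.97 ± 0.026 SE, adjusted p = 4.39e-49). P4hb, which encodes PDI itself, gave 3237 and 3210.1 CPM with TG, against 1284 and 1246 CPM with vehicle (log2 change 1.35 ± 0.025 SE, adjusted p = 1.09e-36). The canonical enzyme thus had a log2 change smaller than that of Creld2 or Pdia4, though with TG libraries clear of vehicle. Erp44, which retrieves unassembled proteins and Ero1 from later compartments, gave 147 and 146 CPM with TG, against 91.2 and 93.4 CPM with vehicle (log2 change 0.67 ± 0.046 SE, adjusted p = 7.71e-17). Pdia5 and Pdia6 changed by 1.89 ± 0.06 SE and 1.84 ± 0.027 SE, and Txndc5 by 0.16 ± 0.034 SE. Txndc12 fell, at 59.2 and 60.7 CPM with TG and 74.8 and 82.3 CPM with vehicle (log2 change -0.39 ± 0.058 SE, adjusted p = 1.65e-07). Erp29, a redox-inactive relative, was not called (log2 change -0.04 ± 0.049 SE, adjusted p = 0.426), and 2390 bases of its exons overlap genes on the other strand.

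The membrane-bound members went the other way. Tmx3 gave 58.8 and 57.3 CPM with TG, against 80.1 and 72.8 CPM with vehicle (log2 change -0.401 ± 0.061 SE, adjusted p = 3.11e-07), and Tmx1 gave 145 and 138 CPM with TG, against 171 and 170.2 CPM with vehicle (log2 change -0.27 ± 0.044 SE, adjusted p = 8.27e-07). For both the TG libraries lay below the vehicle libraries. The falls of Tmx4 and Tmx2 rested on single libraries: without vehicle replicate 1 their log2 changes were -0.18 (adjusted p = 0.0658) and -0.15 (adjusted p = 0.0809), and without TG replicate 2 that of Tmx2 was -0.14 (adjusted p = 0.106). Txndc11 was the member of this family that rose, by 0.77 ± 0.046 SE. Both oxidases rose. Ero1l gave 424 and 422 CPM with TG, against 73.3 and 69.2 CPM with vehicle (log2 change 2.57 ± 0.044 SE, adjusted p = 6.09e-38). Ero1lb gave 109 and 106 CPM with TG, against 5.72 and 5.86 CPM with vehicle (log2 change 4.21 ± 0.083 SE, adjusted p = 4.97e-36), the largest change of any member.

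Of the 6 prolyl isomerases 4 rose. Fkbp11 gave 109.6 and 99.03 CPM with TG, against 18.7 and 17.4 CPM with vehicle (log2 change 2.52 ± 0.068 SE, adjusted p = 4.32e-31). Fkbp14 gave 70.2 and 67.8 CPM with TG, against 17.3 and 19.8 CPM with vehicle (log2 change 1.91 ± 0.073 SE, adjusted p = 1.82e-25). Ppib (cyclophilin B) gave 381 and 381 CPM with TG, against 189 and 191 CPM with vehicle (log2 change 1.004 ± 0.037 SE, adjusted p = 4.03e-26), although 825 bases of its exons overlap Snx22 on the other strand and the counting strand is not stated. Fkbp2 changed by 0.37 ± 0.071 SE. Fkbp10, a collagen chaperone, gave 7.96 and 8.85 CPM with TG, against 10.7 and 12.3 CPM with vehicle (log2 change -0.44 ± 0.14 SE, adjusted p = 0.00453). Its fall was the largest on the log2 scale and not a firm call: without TG replicate 1 it was -0.38 (adjusted p = 0.0535) and without vehicle replicate 2 it was -0.34 (adjusted p = 0.0622). Fkbp7 was not called, at 3.495 and 3.42 CPM with TG and 2.25 and 2.93 CPM with vehicle (log2 change 0.43 ± 0.26 SE, adjusted p = 0.128). For wider context, 40 other ER folding genes were listed, of which 34 were tested: 18 rose and 10 fell, with a median log2 change of 0.17, led upward by Cdnf (2.57 ± 0.56 SE), Mcfd2 (2.08 ± 0.049 SE) and P3h1 (1.76 ± 0.053 SE), and with Plod2, a collagen lysyl hydroxylase, at -1.41 ± 0.056 SE. Of 10 UPR regulators, 9 rose and none fell.

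**Figure D2:**
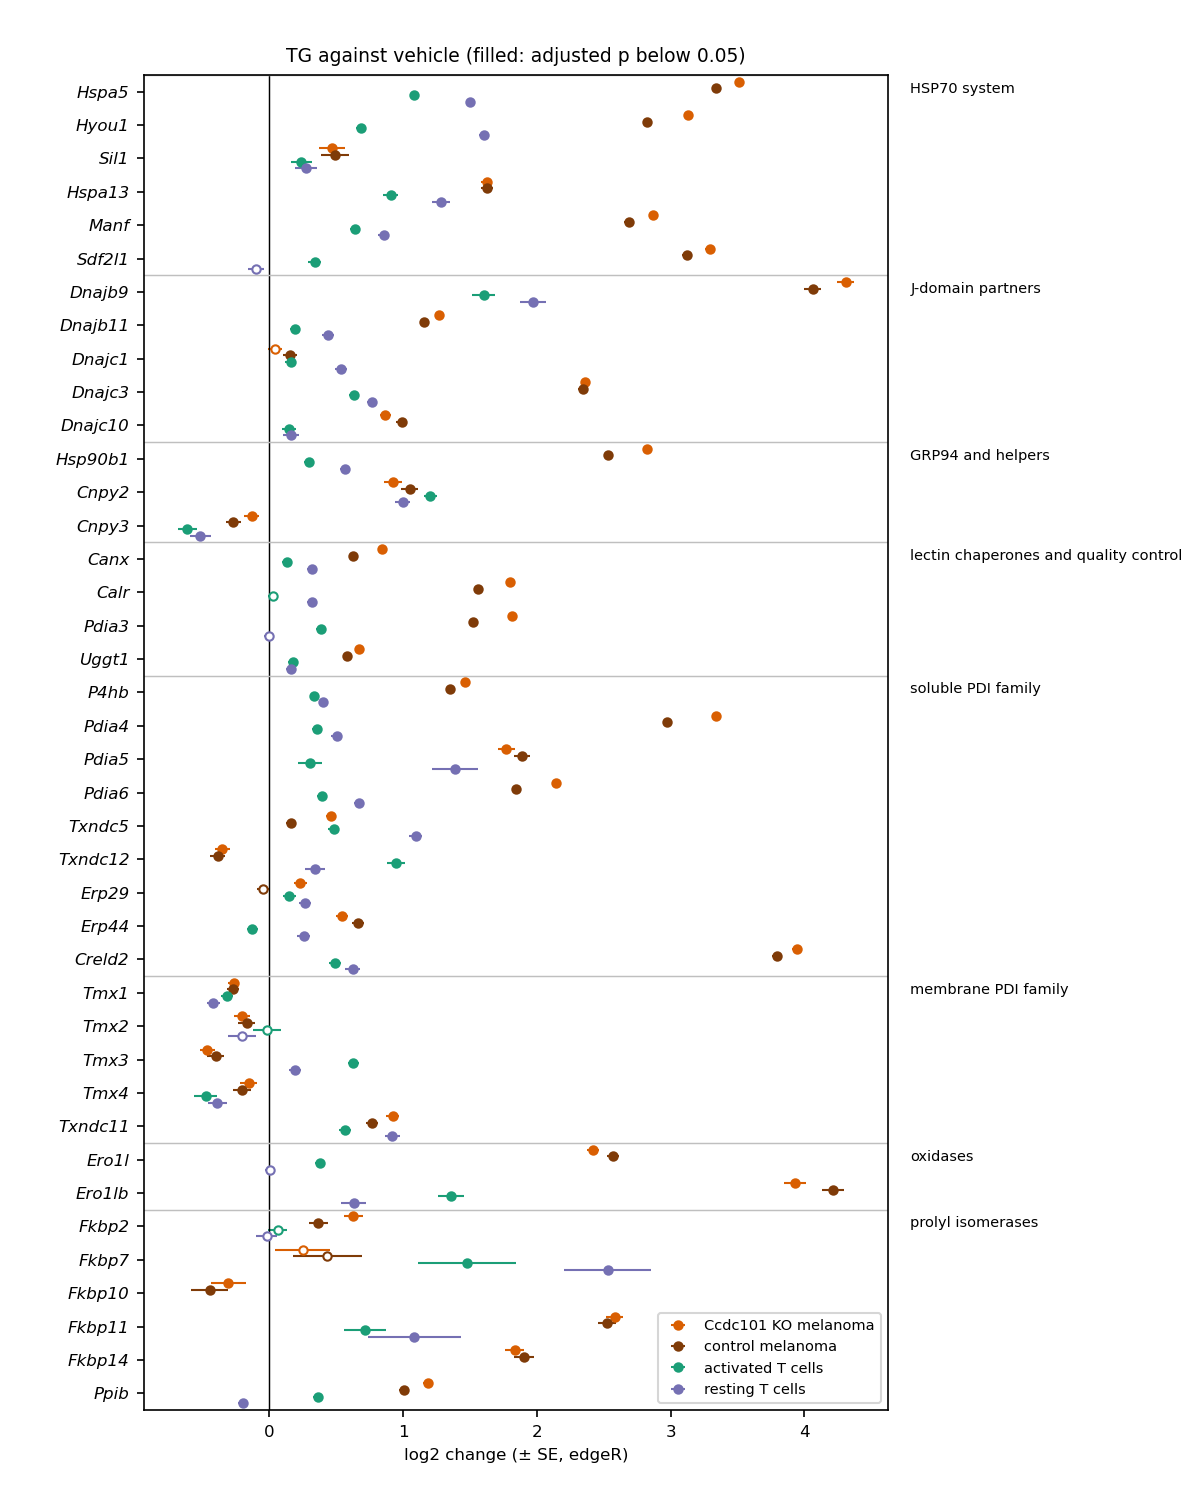
Log2 change with TG over vehicle (horizontal axis) of each member, ordered by role, in Ccdc101 KO melanoma, control melanoma, activated T cells and resting T cells; bars are standard errors and filled points were called at an adjusted p below 0.05. Melanoma changes reach 4.31 and T cell changes reach 2.53, and the points of Tmx1, Tmx2, Tmx3 and Tmx4 lie left of 0 for melanoma.

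Loss of Ccdc101 left this response in place and moved parts of it. In KO cells with against without TG, 31 of 40 members rose and 7 fell, against 34.1% and 36.3% of all genes tested, and 21 rose at least 2-fold, against 8.64%. The median change was 1.23. Dnajb9 gave 223 and 231 CPM with TG, against 11.7 and 11.1 CPM with vehicle (log2 change 4.31 ± 0.064 SE, adjusted p = 2.38e-40). Hspa5 gave 18756 and 18879 CPM with TG, against 1643 and 1648 CPM with vehicle (log2 change 3.52 ± 0.022 SE, adjusted p = 5.19e-54). Creld2 gave 1732 and 1728 CPM with TG, against 112 and 113 CPM with vehicle (log2 change 3.94 ± 0.034 SE, adjusted p = 1.89e-49). These are the same chaperones that led in control cells, and 30 members rose and 7 fell in both genotypes, with none called in opposite directions. The same overlap was not counted over all genes tested, so these numbers have no background share beside them. By DESeq2 31 members rose and 3 fell in KO cells, and the falls of Cnpy3, Fkbp10, Tmx2 and Tmx4 there were not called by DESeq2 (adjusted p = 0.256, 0.236, 0.063 and 0.248) nor without KO TG replicate 1 for Cnpy3 and Tmx2 (-0.11, adjusted p = 0.168, and -0.11, adjusted p = 0.156) or without KO vehicle replicate 2 for Tmx4 (-0.0993, adjusted p = 0.279). Ero1lb gave 101 and 102 CPM with TG, against 6.09 and 7.27 CPM with vehicle (log2 change 3.93 ± 0.084 SE, adjusted p = 1.18e-34). The largest falls in KO cells were those of Tmx3, at 63.1 and 71.2 CPM with TG and 94.8 and 90.7 CPM with vehicle (log2 change -0.46 ± 0.058 SE, adjusted p = 4.71e-09), Txndc12, at 69.2 and 74.6 CPM with TG and 91.5 and 92.5 CPM with vehicle (log2 change -0.35 ± 0.055 SE, adjusted p = 3.28e-07), and Fkbp10 (-0.305 ± 0.13 SE). The fall of Fkbp10, at 10.5 and 9.37 CPM with TG and 12.97 and 11.4 CPM with vehicle, was not called without KO TG replicate 2 (log2 change -0.22, adjusted p = 0.255) or without KO vehicle replicate 1 (-0.19, adjusted p = 0.336).

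The difference between genotypes in the TG change was tested as an interaction. It was positive, meaning a larger rise or smaller fall in KO than in control cells, for 15 of 40 members and negative for 0, against 7.16% and 5.95% of all genes tested. By edgeR's unadjusted p below 0.05, 2 were negative, and by DESeq2 12 were positive and 0 negative. Pdia4 led, at 5677 and 5607 CPM in KO cells with TG and 549.6 and 565 CPM in KO cells with vehicle, against the control values above (difference of log2 changes 0.37 ± 0.035 SE, adjusted p = 1.97e-10). Hyou1 differed by 0.31 ± 0.037 SE, with 4088 and 3998 CPM in KO cells with TG and 453 and 469 CPM in KO cells with vehicle. Txndc5 differed by 0.298 ± 0.049 SE, with 442 and 437 CPM in KO cells with TG and 314 and 326 CPM in KO cells with vehicle, and 414 and 424 CPM in control cells with TG and 367 and 382 CPM in control cells with vehicle. Positive differences were also called for the general chaperones, Hsp90b1 by 0.29 ± 0.03 SE, Calr by 0.24 ± 0.034 SE, Canx by 0.21 ± 0.036 SE and Hspa5 by 0.17 ± 0.029 SE. By role, 4 of the 6 HSP70 system genes, 3 of the 4 lectin group genes and 6 of the 9 soluble PDI genes had a positive difference, but none of the 5 J-domain partners, none of the 5 membrane-bound PDI genes and neither oxidase did. The sizes were small, at most 0.37 on the log2 scale. Of the 15 calls 10 held in every alternative tried. Sdf2l1, Creld2, P4hb, Ppib and Manf did not: Manf stood at 0.14 without control vehicle replicate 2 (adjusted p = 0.0886), Ppib at 0.15 without KO vehicle replicate 1 (adjusted p = 0.117), and Creld2 at 0.15 without control vehicle replicate 1 (adjusted p = 0.0752). Without KO TG replicate 2, P4hb stood at 0.12 (adjusted p = 0.0854) and Sdf2l1 at 0.18 (adjusted p = 0.0971).

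Both arms of that interaction contributed values. With vehicle, KO cells had 9 of 40 members higher and 13 lower than control cells, against 12.4% and 13.3% of genes tested, and none passed 2-fold. Of these 22 calls 11 held in every alternative. The lower ones were soluble proteins apart from Txndc11. Txndc5 gave 314 and 326 CPM in KO cells, against 367 and 382 CPM in control cells (log2 change -0.23 ± 0.035 SE, adjusted p = 1.71e-06), and Hyou1 gave 453 and 469 CPM, against 533 and 518 CPM (log2 change -0.19 ± 0.027 SE, adjusted p = 6.09e-07). Erp29 had 88.2 and 90.2 CPM in KO cells and 98.7 and 103 CPM in control cells (log2 change -0.18 ± 0.049 SE, adjusted p = 0.00534), a call lost under DESeq2 (adjusted p = 0.0603). Pdia4 differed by -0.17 ± 0.025 SE and Calr by -0.15 ± 0.025 SE. With TG the balance was 19 higher and 1 lower, against 16.6% and 15%, and 13 of these 20 calls held in every alternative. Hsp90b1 gave 14334 and 14116 CPM in KO cells with TG, against 12359 and 12484 CPM in control cells with TG (log2 change 0.196 ± 0.021 SE, adjusted p = 5.22e-10), and Canx gave 2723 and 2716 CPM, against 2455 and 2374 CPM (log2 change 0.17 ± 0.025 SE, adjusted p = 8e-07). The 1 lower member, Erp44, at 132 and 134 CPM in KO cells with TG and 147 and 146 CPM in control cells with TG, was not called when any 1 of the 4 libraries was left out (adjusted p = 0.0694 to 0.118).

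Ero1l stood out among the members that differed between genotypes. It gave 95.7 and 107 CPM in KO cells with vehicle, against 73.3 and 69.2 CPM in control cells with vehicle (log2 change 0.501 ± 0.049 SE, adjusted p = 8.5e-11), and 541 and 539.5 CPM in KO cells with TG, against 424 and 422 CPM in control cells with TG (log2 change 0.35 ± 0.037 SE, adjusted p = 4.43e-10). The KO libraries lay above the control libraries under both conditions. Fkbp11 was likewise higher, at 127 and 129 CPM in KO cells with TG and 109.6 and 99.03 CPM in control cells with TG (log2 change 0.298 ± 0.05 SE, adjusted p = 9.03e-06), and with vehicle at 20.7 and 22.2 CPM in KO cells and 18.7 and 17.4 CPM in control cells, where the call did not hold without any 1 of the 4 libraries (adjusted p = 0.0858 to 0.304). The largest log2 difference was that of Fkbp7, at 5.39 and 3.24 CPM in KO cells and 2.25 and 2.93 CPM in control cells with vehicle (log2 change 0.77 ± 0.23 SE, adjusted p = 0.012). It rested on 1 library and was 0.32 without KO vehicle replicate 1 (adjusted p = 0.506) and 0.56 without control vehicle replicate 1 (adjusted p = 0.178). With TG Fkbp7 had 4.71 and 5.61 CPM in KO cells and 3.495 and 3.42 CPM in control cells (log2 change 0.59 ± 0.23 SE, adjusted p = 0.0463), and without KO TG replicate 2 the value was 0.45 (adjusted p = 0.303). Tmx3 had 94.8 and 90.7 CPM in KO and 80.1 and 72.8 CPM in control cells with vehicle (log2 change 0.28 ± 0.055 SE, adjusted p = 0.000178). Melanocyte markers, for comparison, summed to 11070 to 11100 CPM in KO cells with TG, against 14420 to 14490 CPM in control cells with TG, and to 13950 to 14290 CPM in KO cells with vehicle, against 16880 to 17220 CPM in control cells with vehicle, and their part in these differences was not tested.

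**Figure D3:**
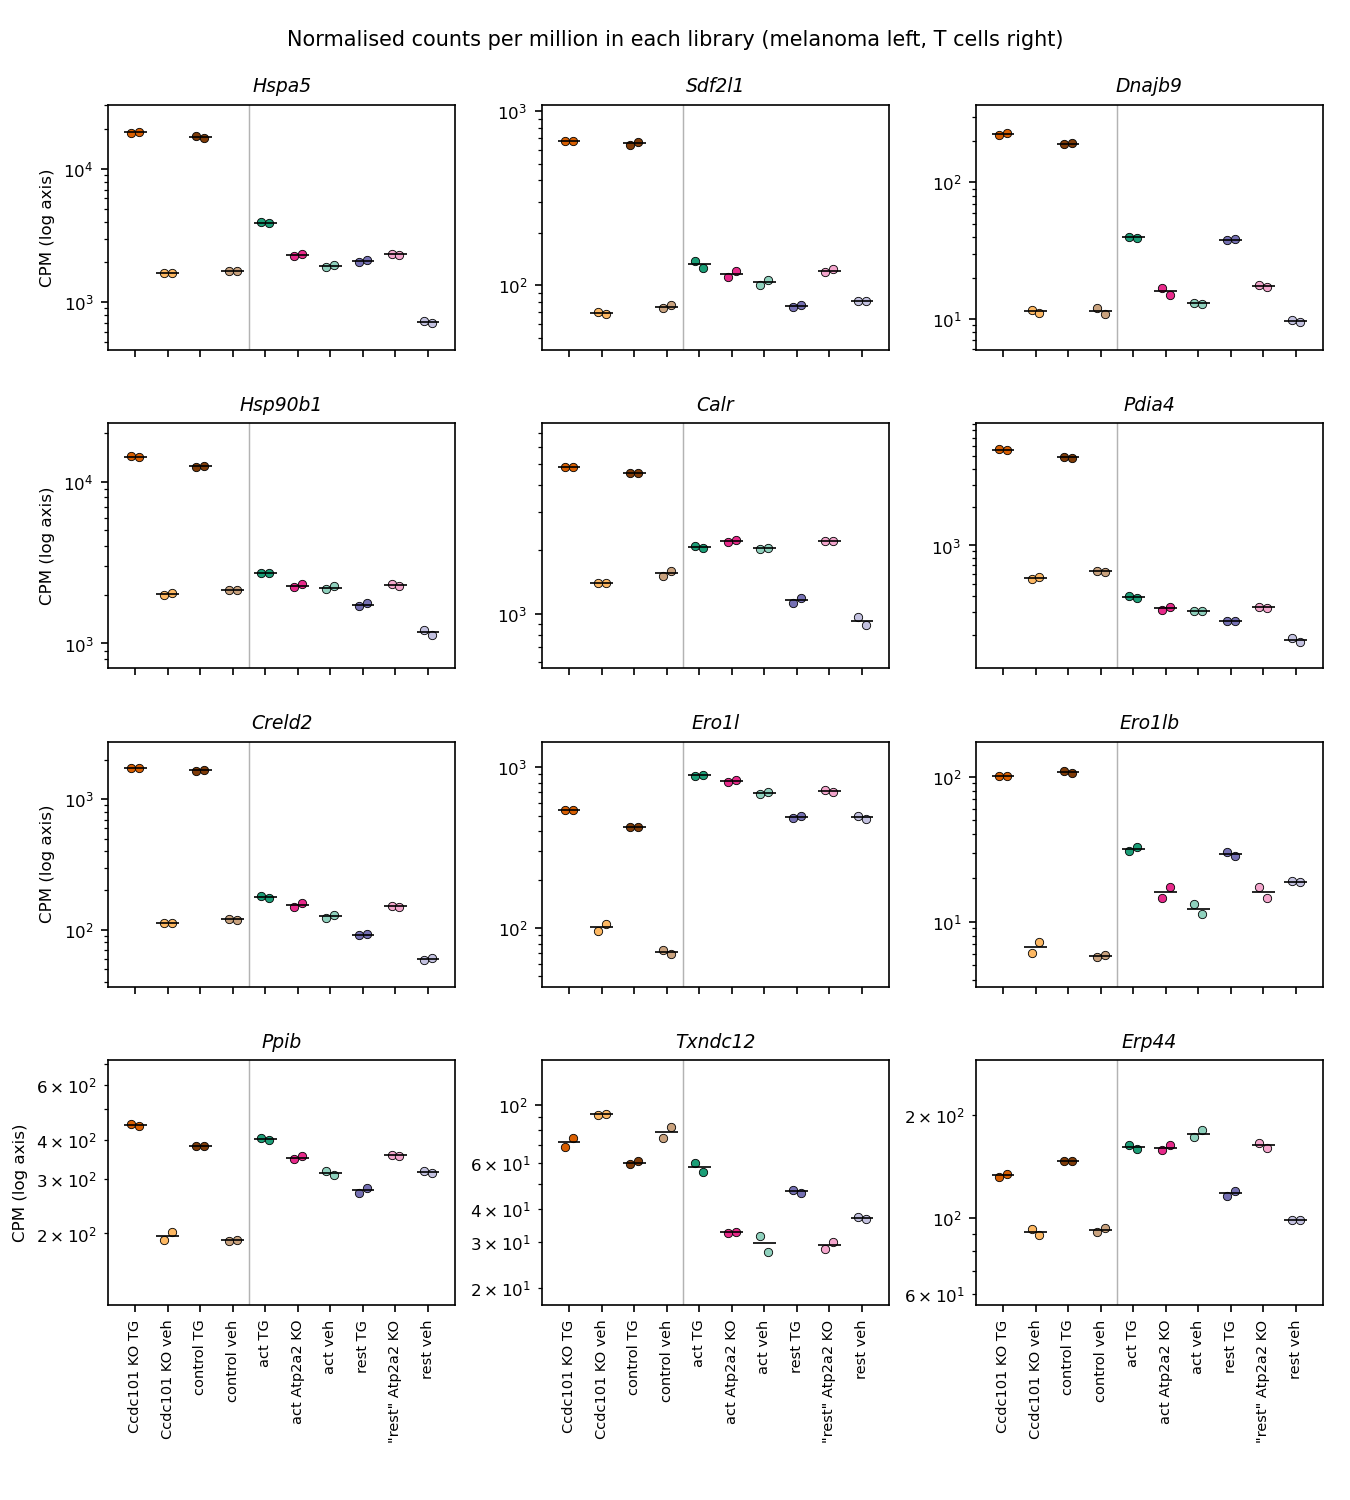
CPM of 12 members in each of the 20 libraries (log axis), 1 point per library and a bar at the mean of each group; rest in quotation marks stands for the libraries labelled resting Atp2a2 KO. Hspa5 lies at 17110 CPM or above in the TG-treated melanoma libraries and at 3983 CPM or below in every T cell library.

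Resting T cells answered TG on a smaller scale. Of the 40 members 38 were tested in T cells, since Fkbp10 and Fkbp14 were at or near 0. Of the 38, 29 rose and 4 fell, against 34.1% and 35.2% of the 13432 genes tested, and 8 rose at least 2-fold, against 11%. The median log2 change was 0.42. Hspa5 gave 1992 and 2055 CPM in resting cells with TG, against 726 and 700.4 CPM with vehicle (log2 change 1.505 ± 0.033 SE, adjusted p = 3.05e-42). Hyou1 gave 572 and 600.0 CPM with TG, against 197 and 186 CPM with vehicle (log2 change 1.61 ± 0.038 SE, adjusted p = 9.25e-41). Dnajb9 gave 37.6 and 38.3 CPM with TG, against 9.81 and 9.51 CPM with vehicle (log2 change 1.97 ± 0.099 SE, adjusted p = 3.28e-25). The BiP system thus rose clear of its vehicle libraries, but Sdf2l1 did not: it had 74.7 and 77.2 CPM with TG and 81.1 and 81.4 CPM with vehicle (log2 change -0.098 ± 0.057 SE, adjusted p = 0.121). All 5 J-domain partners rose, among them Dnajc3 at 397 and 408 CPM with TG and 234 and 239 CPM with vehicle (log2 change 0.77 ± 0.037 SE, adjusted p = 5.64e-26). The rise of Dnajc10, 0.17 ± 0.06 SE, was not called by DESeq2 (0.17, adjusted p = 0.0679), without TG replicate 1 (0.11, adjusted p = 0.207) or without vehicle replicate 2 (0.11, adjusted p = 0.191).

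The largest log2 change in resting cells belonged to a scarce transcript, Fkbp7. It had 3.84 and 4.22 CPM with TG, against 0.724 and 0.646 CPM with vehicle (log2 change 2.53 ± 0.33 SE). Among T cell groups Fkbp7 was highest in resting cells with TG, which helped it pass the filter on low counts, so its change is given as a value without a p-value. It is counted among the 29 members that rose and the 8 that rose at least 2-fold. Fkbp11 was also scarce, with 1.96 and 1.89 CPM with TG and 0.804 and 1.02 CPM with vehicle (log2 change 1.09 ± 0.35 SE, adjusted p = 0.00531), and it was not called without vehicle replicate 1 (log2 change 0.92, adjusted p = 0.0668). All 9 soluble PDI genes rose, by factors below those in melanoma for most. Creld2 gave 90.5 and 92.4 CPM with TG, against 58.5 and 60.2 CPM with vehicle (log2 change 0.62 ± 0.054 SE, adjusted p = 2.2e-15), Pdia4 gave 255 and 257 CPM, against 186 and 174 CPM (log2 change 0.505 ± 0.041 SE, adjusted p = 1.82e-16), and P4hb gave 975 and 1014 CPM, against 765 and 737 CPM (log2 change 0.405 ± 0.035 SE, adjusted p = 1.38e-15). Pdia5, rare in these cells, had 8.57 and 11.2 CPM with TG and 4.02 and 3.42 CPM with vehicle (log2 change 1.39 ± 0.17 SE, adjusted p = 3.01e-10). Erp44 rose slightly, to 116 and 120.0 CPM with TG, against 98.4 and 98.8 CPM with vehicle (log2 change 0.26 ± 0.047 SE, adjusted p = 2.78e-06).

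Among the abundant chaperones of resting T cells, Hsp90b1, Calr and Canx moved less than Hspa5. Hsp90b1 gave 1693 and 1769.7 CPM with TG, against 1216 and 1124 CPM with vehicle (log2 change 0.57 ± 0.035 SE, adjusted p = 9.28e-21). Calr gave 1128 and 1188 CPM with TG, against 963 and 893 CPM with vehicle (log2 change 0.32 ± 0.034 SE, adjusted p = 3.28e-12), and Canx gave 896 and 916 CPM, against 729 and 723 CPM (log2 change 0.32 ± 0.035 SE, adjusted p = 4.52e-12). Each was called and had both TG libraries above both vehicle libraries, yet each rose by less than 1.5-fold. Uggt1 changed by 0.17 ± 0.038 SE, with 315 and 317 CPM with TG and 286 and 277 CPM with vehicle. The oxidases parted: Ero1lb had 30.1 and 28.2 CPM with TG and 19.1 and 18.7 CPM with vehicle (log2 change 0.63 ± 0.096 SE, adjusted p = 6.19e-08), whereas Ero1l had 481 and 499 CPM with TG and 496 and 479 CPM with vehicle (log2 change 0.01 ± 0.035 SE, adjusted p = 0.867). The 4 members that fell were Cnpy3, at 28.6 and 28.1 CPM with TG and 40.3 and 40.7 CPM with vehicle (log2 change -0.52 ± 0.079 SE, adjusted p = 8.27e-08), Tmx1, at 81.5 and 78.4 CPM and 112 and 102 CPM (log2 change -0.42 ± 0.05 SE, adjusted p = 1.46e-10), Tmx4, at 36.5 and 37.1 CPM and 49.9 and 46.1 CPM (log2 change -0.39 ± 0.072 SE, adjusted p = 4.64e-06), and Ppib, at 270.2 and 281 CPM and 316 and 313 CPM (log2 change -0.19 ± 0.037 SE, adjusted p = 7.69e-06). Of 33 other ER folding genes tested 17 rose and 8 fell, led by Gpx8, an ER peroxidase, at -5.44 ± 0.7 SE, Creld1 at 2.06 ± 0.13 SE and P3h1 at 1.87 ± 0.17 SE. Of the 10 UPR regulators 9 rose, and the PERK gene Eif2ak3 fell (-2.02 ± 0.043 SE).

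In activated T cells with against without TG, 31 of 38 tested members rose and 4 fell, against 32.6% and 32.4% of genes tested, and 5 rose at least 2-fold, against 8.29%. The share of members at least 2-fold higher was thus near that of all genes, and the median log2 change was 0.36. Hspa5 gave 3983 and 3928 CPM with TG, against 1834 and 1897 CPM with vehicle (log2 change 1.08 ± 0.032 SE, adjusted p = 1.18e-35). Dnajb9 gave 39.97 and 39.4 CPM with TG, against 13.2 and 12.9 CPM with vehicle (log2 change 1.605 ± 0.086 SE, adjusted p = 1.07e-23). Ero1lb gave 30.9 and 32.5 CPM with TG, against 13.2 and 11.3 CPM with vehicle (log2 change 1.36 ± 0.097 SE, adjusted p = 1.45e-18). Cnpy2 also passed 2-fold, with 125 and 123 CPM with TG, against 52.1 and 56.3 CPM with vehicle (log2 change 1.204 ± 0.051 SE, adjusted p = 1.55e-28), and Fkbp7 stood at 1.705 and 1.99 CPM with TG and 0.641 and 0.681 CPM with vehicle (log2 change 1.48 ± 0.37 SE, adjusted p = 0.000379).

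Here all 6 HSP70 system genes rose, Sdf2l1 included, at 138 and 125 CPM with TG and 100.2 and 108 CPM with vehicle (log2 change 0.34 ± 0.049 SE, adjusted p = 2.39e-08). The rise of Sil1, 0.24 ± 0.08 SE, was not called by DESeq2 (0.22, adjusted p = 0.0977) or with no filter on low counts (0.16, adjusted p = 0.127). Of the 35 calls in activated cells 28 held in every alternative. Hyou1 rose to 975 and 982 CPM with TG, against 607 and 611 CPM with vehicle (log2 change 0.68 ± 0.035 SE, adjusted p = 7.53e-25), and Dnajc3 to 278 and 286 CPM, against 179 and 185 CPM (log2 change 0.63 ± 0.038 SE, adjusted p = 1.13e-21). Both oxidases rose, with Ero1l at 884 and 898 CPM with TG and 677 and 696 CPM with vehicle (log2 change 0.38 ± 0.034 SE, adjusted p = 1.16e-14). Calr, by contrast, was not called, with 2079.8 and 2038 CPM with TG and 2012 and 2037 CPM with vehicle (log2 change 0.02 ± 0.033 SE, adjusted p = 0.531), although calreticulin was among the most abundant members in these cells. Hsp90b1 changed by 0.295 ± 0.034 SE, with 2718 and 2717 CPM with TG and 2159.9 and 2271 CPM with vehicle. Canx changed by 0.13 ± 0.034 SE, with 1251 and 1261 CPM and 1123 and 1169 CPM, a call lost with no filter on low counts (0.05, adjusted p = 0.243). Pdia4 had 400.1 and 386 CPM with TG and 305 and 309 CPM with vehicle (log2 change 0.36 ± 0.038 SE, adjusted p = 2.25e-12). P4hb had 1409 and 1366 CPM and 1084 and 1116 CPM (log2 change 0.34 ± 0.034 SE, adjusted p = 6.9e-13), and Creld2 had 180.3 and 175 CPM and 122 and 131 CPM (log2 change 0.49 ± 0.043 SE, adjusted p = 3.19e-15). Each of these PDI genes rose by less than 1.5-fold.

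Txndc12 rose, with 59.7 and 55.5 CPM with TG, against 31.6 and 27.5 CPM with vehicle (log2 change 0.95 ± 0.069 SE, adjusted p = 2.5e-18), and Tmx3 rose to 176 and 175 CPM with TG, against 112 and 116 CPM with vehicle (log2 change 0.63 ± 0.042 SE, adjusted p = 1.33e-19). Both had fallen in melanoma. Ppib rose, at 405 and 398 CPM with TG and 318 and 307 CPM with vehicle (log2 change 0.36 ± 0.036 SE, adjusted p = 3.23e-13), Fkbp11 had 8.78 and 8.03 CPM and 4.897 and 5.38 CPM (log2 change 0.71 ± 0.16 SE, adjusted p = 6.99e-05), and Uggt1 had 355 and 372 CPM and 321 and 322 CPM (log2 change 0.18 ± 0.037 SE, adjusted p = 3.66e-05). The falls were those of Cnpy3 (30.7 and 35.1 CPM with TG and 51.2 and 49.5 CPM with vehicle, log2 change -0.61 ± 0.071 SE, adjusted p = 4.19e-11), Tmx4 (19.1 and 19.1 CPM and 26.4 and 26.9 CPM, log2 change -0.48 ± 0.088 SE, adjusted p = 4.46e-06), Tmx1 (127 and 121 CPM and 152 and 156 CPM, log2 change -0.31 ± 0.044 SE, adjusted p = 1.05e-08) and Erp44. Erp44 had 163 and 159 CPM with TG and 172 and 180.3 CPM with vehicle (log2 change -0.13 ± 0.041 SE, adjusted p = 0.00636), and its fall was not called without TG replicate 2 (log2 change -0.10, adjusted p = 0.11) or without vehicle replicate 2 (-0.09, adjusted p = 0.116). Among 33 other ER folding genes 14 rose and 7 fell, and 9 of 10 UPR regulators rose.

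The TG changes of activated and resting cells were then compared as an interaction. The difference was positive, higher in activated cells, for 8 of 38 members and negative for 17, against 26.7% and 25.2% of genes tested. The negative share of the members lay above the background and the positive share near it. Pdia5 (-1.08 ± 0.2 SE, adjusted p = 4.91e-06), Hyou1 (-0.92 ± 0.051 SE, adjusted p = 1.61e-22) and Txndc5 (-0.61 ± 0.062 SE, adjusted p = 1.33e-12) had the largest negative differences, and that of Hspa5 was -0.42 ± 0.046 SE. Txndc5 had 217 and 217 CPM in activated cells with TG, 153 and 157 CPM in activated cells with vehicle, 168 and 172 CPM in resting cells with TG and 80.9 and 78.04 CPM in resting cells with vehicle. For Pdia5 the difference came with unequal starting levels, since activated cells with vehicle already held 21.2 and 22.4 CPM, against 4.02 and 3.42 CPM in resting cells. With vehicle, Hyou1, Hspa5 and Txndc5 also started higher in activated cells (log2 differences 1.67, 1.39 and 0.96). Ero1lb and Txndc12 started lower (-0.61 and -0.31), and Ppib was not called (-0.01). The part of starting levels in these differences was not tested. The positive side was led by Ero1lb (0.73 ± 0.14 SE, adjusted p = 1.15e-05), Txndc12 (0.61 ± 0.1 SE, adjusted p = 7.62e-07) and Ppib (0.55 ± 0.052 SE, adjusted p = 9.49e-14), and it also held Sdf2l1, Tmx3, Pdia3, Ero1l and Cnpy2. By role, 4 of 6 HSP70 system genes and 4 of 5 J-domain partners were negative, and both oxidases were positive. Of the 25 calls 21 held in every alternative, and the exceptions included the J-domain partners Dnajb9 and Dnajc3. In both states 27 members rose and 3 fell, and 2 were called in opposite directions, Ppib and Erp44. This overlap, too, was not counted over all genes tested. The difference for Dnajb9, -0.37, was not called without activated vehicle replicate 1 (-0.35, adjusted p = 0.0814), and that for Cnpy2, 0.21, was not called without resting TG replicate 2 (0.12, adjusted p = 0.242). That for Dnajc3, -0.14, was not called by DESeq2 (adjusted p = 0.0504) or without activated TG replicate 1 (-0.11, adjusted p = 0.137), activated vehicle replicate 2 (-0.12, adjusted p = 0.115) or resting vehicle replicate 1 (-0.12, adjusted p = 0.0884). That for Pdia4, -0.15, was not called without activated TG replicate 2 (-0.12, adjusted p = 0.0957), activated vehicle replicate 2 (-0.14, adjusted p = 0.0681) or resting vehicle replicate 2 (-0.0977, adjusted p = 0.19).

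**Figure D4:**
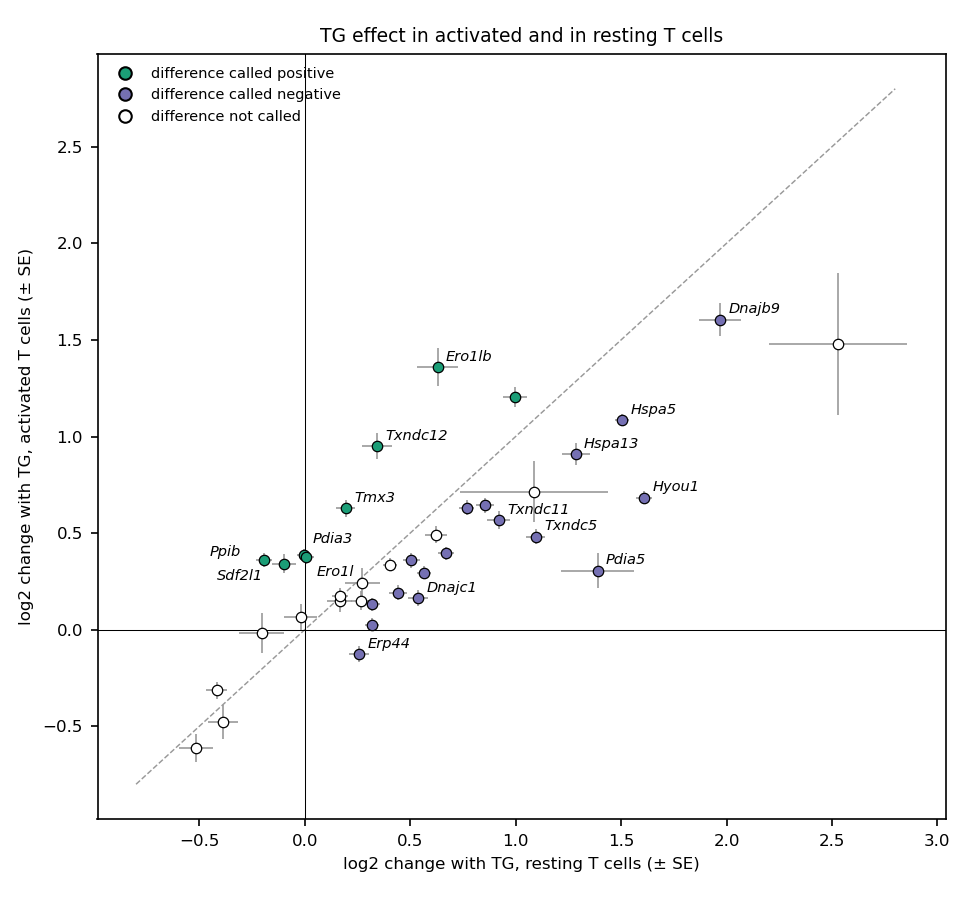
Log2 change with TG over vehicle in resting T cells (horizontal axis) and activated T cells (vertical axis) for the 38 members tested, with standard errors and the line of equal change; colours mark members whose difference was called positive or negative. Pdia5 and Hyou1 lie below the line, and Ero1lb, Txndc12 and Ppib lie above it.

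Activation itself raised much of the folding machinery. In activated against resting control cells with vehicle, 28 of 38 tested members were higher and 6 lower, against 35.3% and 39.1% of genes tested, with 8 at least 2-fold higher, against 12.2%, and a median log2 change of 0.51. Pdia5 gave the values above (log2 change 2.54 ± 0.14 SE, adjusted p = 1.92e-23). Fkbp11 gave 4.897 and 5.38 CPM in activated cells, against 0.804 and 1.02 CPM in resting cells (log2 change 2.49 ± 0.27 SE, adjusted p = 4.57e-12). Hyou1 (1.67 ± 0.038 SE) and Hspa5 (1.39 ± 0.033 SE) rose by more than 2-fold between the vehicle values given above. Hspa5 in activated cells with vehicle, at 1834 and 1897 CPM, lay below its 1992 and 2055 CPM in resting cells with TG. All 4 lectin group genes rose, among them Calr, with 2012 and 2037 CPM in activated and 963 and 893 CPM in resting cells (log2 change 1.12 ± 0.034 SE, adjusted p = 1.32e-35). Of the other soluble PDI genes Pdia6 (1.24 ± 0.037 SE), Creld2 (1.09 ± 0.051 SE), Erp44 (0.83 ± 0.044 SE) and Pdia4 (0.77 ± 0.04 SE) rose, and Ero1l rose by 0.49 ± 0.035 SE.

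The members that activation lowered were Tmx4, with 26.4 and 26.9 CPM in activated and 49.9 and 46.1 CPM in resting cells (log2 change -0.86 ± 0.074 SE, adjusted p = 1.82e-15), Ero1lb, with 13.2 and 11.3 CPM and 19.1 and 18.7 CPM (log2 change -0.61 ± 0.11 SE, adjusted p = 1.86e-06), Dnajc3, with 179 and 185 CPM and 234 and 239 CPM (log2 change -0.38 ± 0.039 SE, adjusted p = 5e-13), Txndc12 (-0.31 ± 0.076 SE), and, by small amounts, Erp29 and Tmx3. The call for Tmx3, -0.101 ± 0.044 SE, was lost when any 1 of the 4 libraries was left out (adjusted p = 0.0514 to 0.286), and that for Erp29 was lost by DESeq2 (-0.13, adjusted p = 0.0831) and with no filter on low counts (-0.0482, adjusted p = 0.554). Ppib was not called (log2 change -0.01 ± 0.036 SE, adjusted p = 0.822). Under TG the log2 changes of Ero1lb, Dnajc3 and Txndc12 were positive in both states, as given above, in comparisons that share control libraries with this one. With TG in both arms, activated cells had 30 members higher and 4 lower than resting cells, against 32% and 31.9%. Fkbp11 (2.12 ± 0.2 SE), Pdia5 (1.46 ± 0.11 SE) and Hspa5 (0.97 ± 0.032 SE) led, and Fkbp7 (-1.11 ± 0.26 SE), Tmx4 (-0.94 ± 0.086 SE) and Dnajc3 (-0.52 ± 0.036 SE) were lowest. The Fkbp7 value, counted among the 4 lower members, uses the resting TG libraries that helped this scarce transcript pass the filter. Of 33 other ER folding genes, activation with vehicle raised 19 and lowered 8, led by P3h1 at 2.38 ± 0.15 SE, Fkbp9 at 2.04 ± 0.56 SE and Creld1 at 1.96 ± 0.13 SE, while 4 of 10 UPR regulators rose and 3 fell.

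Atp2a2 encodes a pump that TG blocks. In activated KO against activated control cells with vehicle, 17 of 38 tested members were higher and 4 lower, against 17.5% and 19.6% of genes tested, and none passed 2-fold. The median log2 change was 0.12, and 13 of the 21 calls held in every alternative. Hspa5 gave 2211 and 2308 CPM in KO cells, against 1834 and 1897 CPM in control cells (log2 change 0.28 ± 0.032 SE, adjusted p = 2.48e-10). Creld2 gave 150.1 and 159 CPM in KO cells, against 122 and 131 CPM in control cells (log2 change 0.29 ± 0.043 SE, adjusted p = 1.16e-07), and Ero1l gave 807 and 831 CPM, against 677 and 696 CPM (log2 change 0.25 ± 0.034 SE, adjusted p = 1.1e-08). For each of these the KO libraries lay above both control libraries. Erp29, with its overlapping neighbours, had 108 and 117 CPM in KO cells and 91.1 and 90.7 CPM in control cells (log2 change 0.302 ± 0.046 SE, adjusted p = 2.39e-07). The largest called rises, those of Ero1lb and Dnajb9, rested on single libraries and were not called by DESeq2 (adjusted p = 0.065 and 0.105). Ero1lb had 14.7 and 17.2 CPM in KO cells and 13.2 and 11.3 CPM in control cells (log2 change 0.35 ± 0.11 SE, adjusted p = 0.00819), and its value was 0.24 without KO replicate 2 (adjusted p = 0.14) and 0.25 without control replicate 2 (adjusted p = 0.143). Dnajb9 had 16.995 and 15.1 CPM in KO cells and 13.2 and 12.9 CPM in control cells (log2 change 0.31 ± 0.1 SE, adjusted p = 0.0112), and 0.21 without KO replicate 1 (adjusted p = 0.265).

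Other members were not called in KO cells: Hsp90b1 had 2238 and 2321 CPM in KO and 2159.9 and 2271 CPM in control cells (log2 change 0.04 ± 0.034 SE, adjusted p = 0.369), Canx had 1095 and 1119 CPM and 1123 and 1169 CPM (log2 change -0.05 ± 0.034 SE, adjusted p = 0.25), Pdia4 had 311 and 332 CPM and 305 and 309 CPM (log2 change 0.07 ± 0.038 SE, adjusted p = 0.175), Dnajc3 had 189.8 and 193 CPM and 179 and 185 CPM (log2 change 0.07 ± 0.039 SE, adjusted p = 0.139), and Uggt1 had 327 and 316 CPM and 321 and 322 CPM (log2 change 0.00 ± 0.037 SE, adjusted p = 0.977). P4hb rose by 0.16 ± 0.034 SE, with 1195 and 1265 CPM in KO cells. Ppib rose by 0.16 ± 0.036 SE, with 345 and 354 CPM, and Calr by 0.11 ± 0.033 SE, with 2159.6 and 2223 CPM, a call lost without KO replicate 2 (0.09, adjusted p = 0.0713). Cnpy3 had the largest called change, a fall, with 38.7 and 37.5 CPM in KO cells (log2 change -0.403 ± 0.066 SE, adjusted p = 1.5e-06), and Tmx1 was also lower, with 123 and 128 CPM (log2 change -0.29 ± 0.043 SE, adjusted p = 1.24e-07). Erp44, at 157 and 163 CPM, and Fkbp2, at 32.6 and 33.4 CPM in KO and 36.96 and 37.8 CPM in control cells, were lower too, but Erp44 was not called without control replicate 2 (-0.10, adjusted p = 0.119) and Fkbp2 lost its call without any 1 of the 4 libraries (adjusted p = 0.0604 to 0.199). Sdf2l1 had 111 and 121 CPM and Fkbp11 5.96 and 5.88 CPM in KO cells. Among 33 other ER folding genes 7 were higher and 5 lower, and 9 of 10 UPR regulators were higher.

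TG and the knockout were set against each other in activated cells. With TG 27 members were higher than in KO cells and 4 lower, against 30.5% and 30.0% of genes tested. The differences were largest for Dnajb9 (1.29 ± 0.084 SE, adjusted p = 3.87e-20), Cnpy2 (1.16 ± 0.051 SE, adjusted p = 1.49e-27) and Ero1lb (1.01 ± 0.093 SE, adjusted p = 3.59e-14), and that of Hspa5 was 0.81 ± 0.032 SE. Cnpy2 had 125 and 123 CPM with TG and 55.2 and 56.2 CPM in KO cells. On the lower side stood Tmx4, with 19.1 and 19.1 CPM with TG and 25.9 and 25.6 CPM in KO cells (-0.43 ± 0.089 SE), Cnpy3 (-0.21 ± 0.075 SE), Erp29, with 103 and 99.2 CPM and 108 and 117 CPM (-0.15 ± 0.046 SE), and Calr (-0.09 ± 0.033 SE). Of these the Tmx4 call held in every alternative, whereas Cnpy3 was -0.12 without TG replicate 1 (adjusted p = 0.264), Erp29 -0.10 without KO replicate 2 (adjusted p = 0.105) and Calr -0.07 without KO replicate 2 (adjusted p = 0.155).

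**Figure D5:**
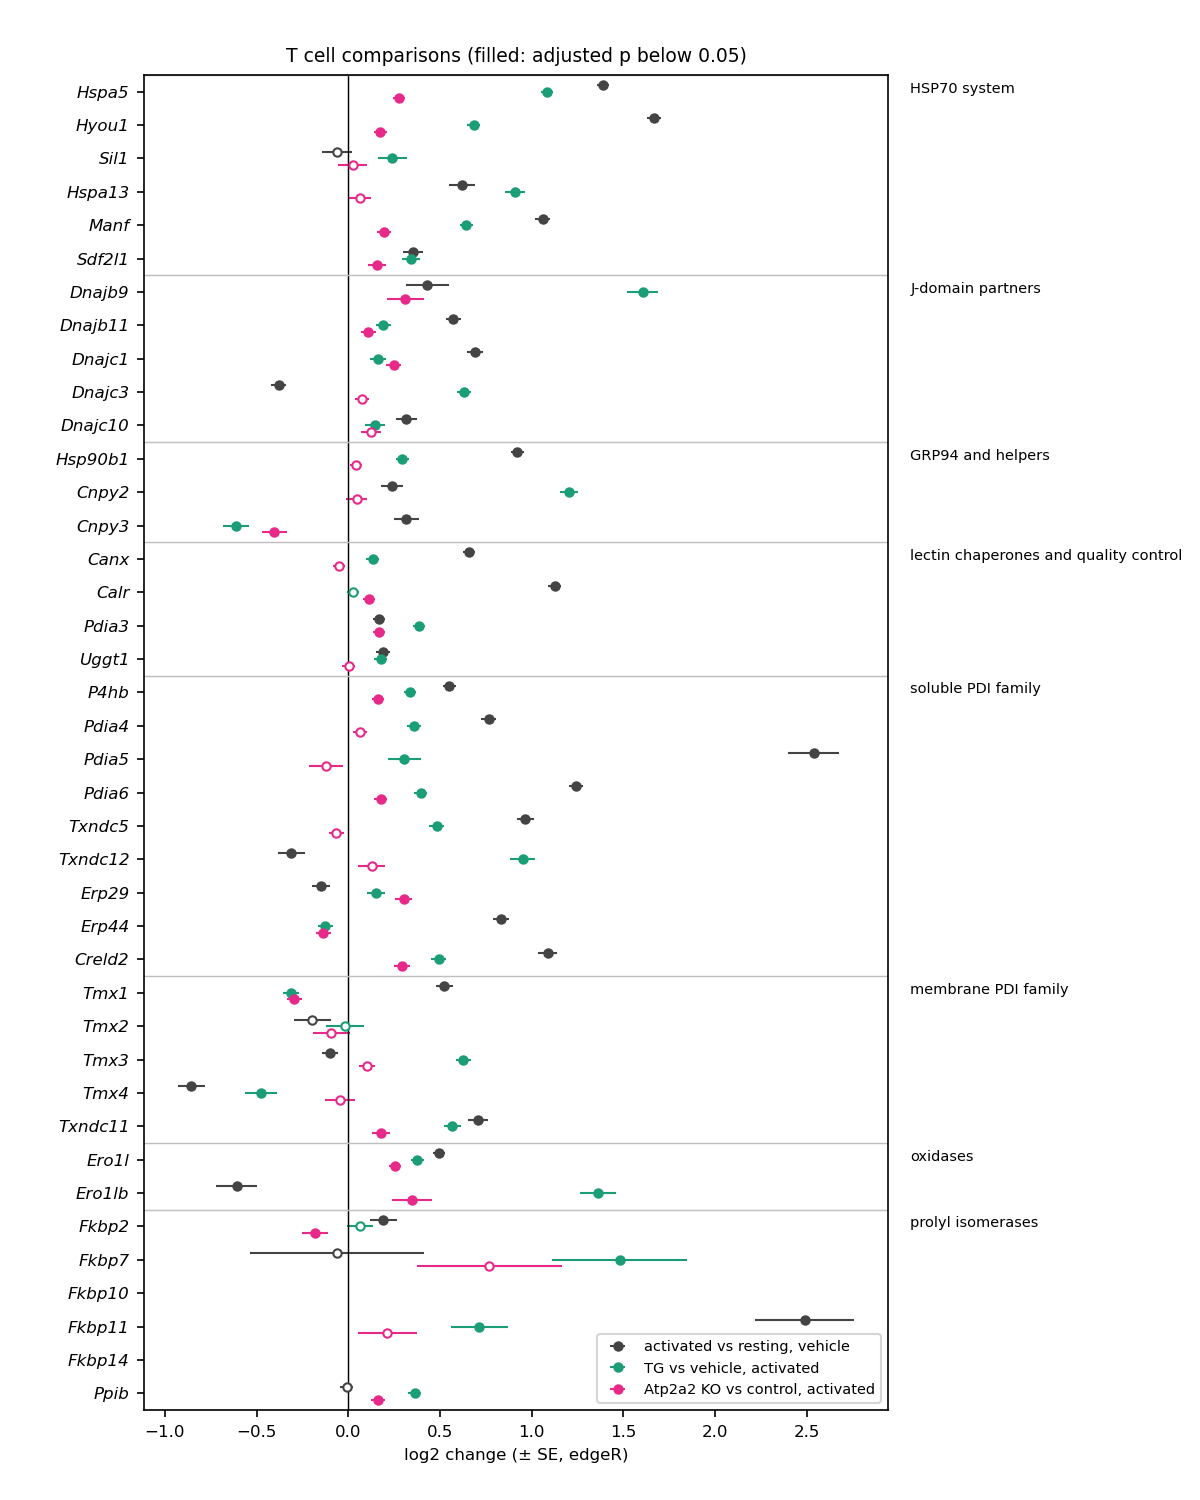
Log2 change of each tested member (vertical order by role) for activated over resting cells with vehicle, TG over vehicle in activated cells, and Atp2a2 KO over control in activated cells, with standard errors and filled points for calls at an adjusted p below 0.05; Fkbp10 and Fkbp14 were not tested. The knockout changes lie between -0.40 and 0.77, Fkbp7 at the upper end not being called, while activation reaches 2.54 for Pdia5.

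The libraries labelled resting Atp2a2 KO gave folding genes at activated levels. Hspa5 had 2312 and 2261 CPM there and 726 and 700.4 CPM in resting control cells (log2 change 1.68 ± 0.033 SE, adjusted p = 3e-44), Calr had 2187 and 2187 CPM and 963 and 893 CPM (log2 change 1.24 ± 0.034 SE, adjusted p = 2.64e-37), Hsp90b1 had 2329.9 and 2265 CPM and 1216 and 1124 CPM, and Fkbp11 had 6.25 and 7.503 CPM and 0.804 and 1.02 CPM (log2 change 2.91 ± 0.27 SE, adjusted p = 2.23e-14). In all, 28 of 38 members were higher and 3 lower than in resting control cells, against 33.7% and 35.9% of genes tested. Against the libraries labelled resting, those labelled activated had 1 member higher, Ero1l, at 807 and 831 CPM and 721 and 705 CPM (log2 change 0.1996 ± 0.034 SE, adjusted p = 0.000387), and 0 lower by edgeR, against 0.469% and 0.119% of genes tested, with 1 lower at an unadjusted p below 0.05 and 0 by DESeq2. The Ero1l call was lost without replicate 2 of the libraries labelled resting (0.18, adjusted p = 0.075). Tmx4, at 23.2 and 27.5 CPM (-0.93 ± 0.082 SE), Txndc12, at 28.1 and 30.01 CPM (-0.35 ± 0.083 SE), and Dnajc3 (-0.31 ± 0.04 SE) were the members below their resting control levels, as they were in activated control cells. Pdia5 had 20.5 and 19.1 CPM and Hyou1 685 and 662 CPM, both above resting control libraries. The other members whose libraries are given throughout stood there at 1081 and 1161 CPM for Canx, 331 and 322 CPM for Pdia4, 1228 and 1199 CPM for P4hb and 152 and 150.5 CPM for Creld2. Sdf2l1 had 118 and 124 CPM, Dnajb9 17.6 and 17.03 CPM, Dnajc3 193 and 188 CPM, Ero1lb 17.3 and 14.6 CPM, Ppib 357 and 355 CPM, Uggt1 337 and 317 CPM and Erp44 165 and 160.1 CPM.

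The TG changes of control melanoma and T cells were compared in a fit of all 20 libraries. Against resting T cells, the difference was positive, a larger change in melanoma, for 26 of 40 members and negative for 7, against 23.6% and 23.8% of the 14824 genes tested. Against activated T cells it was positive for 27 and negative for 5, against 21.6% and 21.8%. Creld2, Sdf2l1 and Ero1lb led both times, with differences of 3.15 ± 0.062 SE, 3.202 ± 0.069 SE and 3.56 ± 0.14 SE against resting cells and 3.27 ± 0.055 SE, 2.76 ± 0.064 SE and 2.82 ± 0.15 SE against activated cells. Sdf2l1 shows the contrast plainly, since its log2 changes were 3.12 in melanoma, 0.34 in activated T cells and -0.098, not called, in resting T cells. By role, the difference from activated cells was positive for 5 of 6 HSP70 system genes, 4 of 5 J-domain partners, all 4 lectin group genes and both oxidases. Ero1l (2.54 ± 0.055 SE against resting cells) and Hsp90b1 (1.95 ± 0.043 SE) moved in melanoma while they stayed within 1.5-fold in both T cell states.

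Txndc12 and Tmx3 had the opposite pattern and were called in opposite directions in melanoma and in T cells. For Txndc12 the TG change in melanoma minus that in activated T cells was -1.36 ± 0.09 SE (adjusted p = 2.07e-22) and against resting T cells -0.75 ± 0.093 SE (adjusted p = 1.02e-10). For Tmx3 these were -1.06 ± 0.073 SE (adjusted p = 1.79e-21) and -0.62 ± 0.075 SE (adjusted p = 4.33e-11). Fkbp7 had the largest negative difference against resting cells (-2.12 ± 0.44 SE) and a negative one against activated cells (-1.07 ± 0.46 SE), but it stood at or below 5.61 CPM in every library, and the second call was lost without activated vehicle replicate 1 (-1.03, adjusted p = 0.155). Txndc5 differed by -0.95 ± 0.057 SE against resting cells. Ppib, which rose in melanoma and fell in resting T cells, differed by 1.18 ± 0.052 SE, and Erp44, which rose in melanoma and fell in activated T cells, by 0.76 ± 0.061 SE.

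Levels with vehicle were also compared between the cell types. With vehicle, control melanoma cells had 25 of 40 members higher and 12 lower than resting T cells, against 40.8% and 43.0% of genes tested. Fkbp10 and Fkbp14, counted among the higher ones, entered this fit through their melanoma counts and were not tested within T cells, so their direction was fixed by the filter; of the other 38 members 23 were higher and 12 lower. Higher in melanoma were Fkbp11 (4.13 ± 0.2 SE), Pdia5 (2.72 ± 0.13 SE), Txndc5 (2.06 ± 0.042 SE) and Pdia4 (1.62 ± 0.035 SE). The collagen-linked isomerases Fkbp10 and Fkbp14 were present in melanoma, at 10.7 and 12.3 CPM and 17.3 and 19.8 CPM, whereas both resting T cell libraries with vehicle had 0 counts of Fkbp14, which allows up to 3 counts in each. On one scale over all 20 libraries Txndc5 had 347 and 358 CPM in melanoma and 86.1 and 83.3 CPM in resting T cells. Both oxidases were lower in melanoma. Ero1l had 69.1 and 64.9 CPM in melanoma and 528 and 511 CPM in resting T cells (log2 difference -2.95 ± 0.042 SE, adjusted p = 2.14e-66), and Ero1lb had 5.398 and 5.495 CPM and 20.3 and 19.9 CPM (log2 difference -1.88 ± 0.12 SE, adjusted p = 2e-23). Sil1, at 15.2 and 12.6 CPM in melanoma and 29.03 and 30.5 CPM in resting T cells (-1.08 ± 0.095 SE), Ppib (-0.91 ± 0.037 SE) and Tmx3 (-0.85 ± 0.05 SE) were lower too.

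Levels per kilobase of merged exons, scaled over all 20 libraries, gave the order of members within each group. In control melanoma with TG, Hspa5 stood first at 3844 ± 88.6 CPM per kilobase (SD, n = 2), before Hsp90b1 at 2886 ± 9.98 and Pdia4 at 1923 ± 19.2, and the gaps between these neighbours were wider than their spread. With vehicle, Calr at 505 ± 14.4 and Hsp90b1 at 501 ± 3.44 did not differ beyond their spread, with Hspa5 at rank 4, at 381 ± 2.54. The melanoma cells thus put BiP ahead of calreticulin with TG and not with vehicle. Resting T cells showed the same exchange: with TG Hspa5 led at 515 ± 10.7 and Calr had rank 3 at 433 ± 15.1. With vehicle Calr had rank 1 at 344 ± 17.8, not beyond its spread from Hsp90b1 at 309 ± 16.6, and Hspa5 had rank 5 at 180 ± 4.16. Activated T cells with TG had Hspa5 at 974 ± 8.85 before Calr at 744 ± 10.2. In activated Atp2a2 KO cells Calr stayed first, at 791 ± 12.9, with Hspa5 at rank 3, at 556 ± 14.7, and in activated control cells with vehicle Calr was first at 721 ± 4.65 and Hspa5 at rank 3, at 453 ± 9.77. At the other end, Ero1lb was the lowest member in control melanoma with vehicle, at 0.819 CPM per kilobase, and was no longer among the 4 lowest with TG.

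The members with the ERSE sites printed above were then read against their TG changes. In control melanoma all 8 rose, 7 of them at least 2-fold, with a median log2 change of 2.44, while of the 25 members with a window and no exact element 19 rose and 5 fell, with a median of 0.99. In Ccdc101 KO melanoma all 8 rose, with a median of 2.59, while of the other 25 members 18 rose and 5 fell, with a median of 0.92. Of the 7 members without a window, 4 rose and 2 fell in control melanoma (median 0.49). In KO melanoma 5 of these 7 rose and 2 fell (median 0.47). In resting T cells all 8 rose, with a median of 0.63. Of the 24 tested members with a window and no exact element 15 rose and 4 fell, with a median of 0.30. In activated T cells 7 of 8 rose, Calr not being called, with a median of 0.44. Of those 24 members 18 rose and 4 fell, with a median of 0.34. The 6 tested members without a window all rose in both T cell states, with medians of 0.57 in resting and 0.64 in activated cells. Among all genes tested 35.7% rose in control melanoma, 34.1% in KO melanoma, 34.1% in resting and 32.6% in activated T cells. Canx, whose element lies 127 to 145 bases before its start, had the smallest change among the 8 in control melanoma, at 0.63. The exact letters were not in the windows of Dnajb9, Sdf2l1, Pdia4, Ero1l and Fkbp11, whose TG changes in control melanoma lay between 2.52 and 4.06. These counts describe the members and were not tested.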

How the data were processed

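The authors deposited 1 table of raw read counts per gene for all 20 libraries, and, per the submitters' processing notes, used STAR 2.6.0c and HTSeq with mouse build GRCm38 (mm10). Counting strand, annotation release and filters are not given in the sources used here. Exons of 14 members overlap those of other genes. The overlaps were Erp29 (2390 bases), Ppib (825), Dnajc1 (749), Hsp90b1 (632), Manf (326), Tmx2 (271), Txndc5 (224), Fkbp14 (208) and Fkbp10 (193). Txndc11, Pdia6, Pdia3, Pdia4 and Dnajb9 overlapped by at most 75 bases. For Hsp90b1, Manf, Tmx2 and Pdia4 at least 1 overlapping gene lies on the same strand. Gene names and coordinates came from GENCODE M21 (46005 of 46603 IDs named) and promoter windows from RefSeq. Counts were scaled by TMM and tested with edgeR 4.0.16 (R 4.3.3), robust quasi-likelihood test with default expression filter, in 3 fits: 8 melanoma libraries (12540 genes), 12 T cell libraries (13432 genes) and all 20 (14824 genes). P-values were Benjamini-Hochberg adjusted over all genes of the fit and called below 0.05. Log2 changes have the tested condition on top, and standard errors follow from the test. CPM are scaled within melanoma or within T cell libraries, except levels compared between cell types. The scripts were tested on simulated data.

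All 40 members could be named, with library values for 16 of them and for the 3 largest called changes each way per comparison. Members, lists and named genes were chosen with earlier results of these data known. Alternatives were DESeq2 1.42.0, RLE scaling, no expression filter, a filter of 5 CPM in 2 libraries, the compared groups alone, a replicate block, leaving out each library, and leaving out the libraries labelled resting Atp2a2 KO. Replicates of a group differed by more than counting noise (chi-square per degree of freedom 1.498 to 3.497), so none was counted as a copy. Protein features were not analysed here.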

Additional observations from a re-analysis of the deposited data

Results flagged for a closer look

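The TG change differed between groups, by the interaction tests above, for the following members. Against control melanoma, Ccdc101 KO melanoma had 15 members with a positive difference and 0 with a negative one at an adjusted p below 0.05 in edgeR. With an unadjusted p below 0.05, 2 were negative, and by DESeq2 12 were positive and 0 negative. Activated minus resting T cells gave 8 positive and 17 negative differences. Control melanoma minus resting T cells gave 26 positive and 7 negative, and control melanoma minus activated T cells gave 27 positive and 5 negative.

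The following members were called in opposite directions in the compared groups, each with 2 libraries per condition. How many of all genes tested were called in opposite directions was not counted. Between activated and resting T cells these were Ppib (difference 0.554 ± 0.0515 SE, edgeR adjusted p = 9.49e-14) and Erp44 (-0.383 ± 0.0623 SE, adjusted p = 5.79e-07), whose own fall in activated cells was not called without TG replicate 2 (-0.10, adjusted p = 0.11) or vehicle replicate 2 (-0.09, adjusted p = 0.116). Control melanoma and resting T cells differed in direction for Ppib (1.18 ± 0.0523 SE, adjusted p = 2.32e-32), Txndc12 (-0.747 ± 0.0929 SE, adjusted p = 1.02e-10) and Tmx3 (-0.615 ± 0.0745 SE, adjusted p = 4.33e-11). Control melanoma and activated T cells differed for Erp44 (0.764 ± 0.0607 SE, adjusted p = 1.75e-18), Txndc12 (-1.36 ± 0.0902 SE, adjusted p = 2.07e-22) and Tmx3 (-1.06 ± 0.0729 SE, adjusted p = 1.79e-21). Exons of Ppib overlap Snx22 by 825 bases.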

How the results depend on the processing

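Over 3280 member values with 1 library left out, 168 calls were lost, 30 were gained and none reversed. Per comparison, leaving out 1 library gave 36 to 37 called members for TG in control melanoma (38 with all libraries), 35 to 37 in Ccdc101 KO melanoma (38), 32 to 34 in resting T cells (33), 33 to 35 in activated T cells (35), 17 to 18 for Ccdc101 KO with vehicle (22), 11 to 14 for its interaction with TG (15) and 16 to 20 for Atp2a2 KO in activated cells (21). For activated against labelled resting Atp2a2 KO cells the number was 0 to 1, and it was 0 without replicate 2 of the labelled resting libraries. Over 662 member values, called or not by edgeR, DESeq2 lost 56 calls and gained none. For Ccdc101 KO with vehicle it called 12 members (3 higher, 9 lower), against 22 (9 higher, 13 lower), and 1508 genes in all, against 3218. It also called 2126 genes, against 3956, for Ccdc101 KO with TG, 671, against 1644, for the interaction, 3156, against 4986, for Atp2a2 KO, and 35, against 79, between the Atp2a2 KO groups. Leaving out 1 library gave as few as 2615 genes for Ccdc101 KO with TG, 1090 for the interaction and 15 to 191 between the Atp2a2 KO groups, where no filter gave 184. A filter of 5 CPM gave 18 higher and 4 lower members for Ccdc101 KO with TG. With no filter, Ppib under activation was 0.0897 (adjusted p = 0.0461), the opposite sign of its uncalled main value. The causes were not tested. Same-numbered libraries showed no large shared deviation (correlations -0.0992 to 0.0581 in melanoma and -0.132 to 0.126 in T cells). Numbers were therefore treated as names in the main fits, though a small shared deviation could go unseen. With a replicate block 32 members, against 33, differed between melanoma and resting T cells and 31, against 32, between melanoma and activated T cells, and the other counts of called members were the same. Depth limits Fkbp7, Fkbp10, Fkbp11 and Fkbp14 in T cells.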

Other observations

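The exact ERSE, searched in the promoter windows of all protein-coding genes after the member values had been seen, also stood near 21 such genes that are not members, 11 of which were tested in melanoma. In control melanoma with against without TG 7 of the 11 rose and 3 fell, against 35.7% and 36.1% of all genes tested. The 7 included Xlr3a, Xlr3b and Xlr3c (log2 changes 1.28, 1.09 and 1.33), which share 1 family name, so the 7 are not all separate cases. Syvn1, a ubiquitin ligase of ER-associated degradation, rose by 3.13 ± 0.0437 SE on the log2 scale (edgeR adjusted p = 8.44e-35), Zfp57 by 2.96 ± 0.149 SE (adjusted p = 2.64e-21) and Alg12, a mannosyltransferase of N-glycan assembly that neighbours Creld2, by 2.03 ± 0.0777 SE (adjusted p = 1.48e-25). Calr4, a relative of Calr, was at -1.78 ± 0.352 SE (adjusted p = 2.31e-05). In Ccdc101 KO melanoma 6 of these 11 rose and 4 fell, against 34.1% and 36.3% of genes tested. The 11 tested in T cells held Ptgdr2 and Derl3 in place of Calr4 and Xlr3c. In resting T cells 5 rose and 4 fell, against 34.1% and 35.2%, so these counts lay near the shares of all genes. In activated T cells 4 rose and 2 fell, against 32.6% and 32.4%.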
